A study of Rattus norvegicus with 6 samples.

Results

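Small leucine-rich proteoglycans (SLRPs) are a family of secreted matrix proteins, and 10 of their genes were examined in cells of newborn rat bone that had attached to either of 2 protein coatings. The members were chosen by name, with earlier results of these data known: Bgn, Dcn, Aspn, Lum, Fmod, Prelp, Omd, Epyc, Ogn and Chad. A row of the deposited table counted for a gene where the array annotation gave that symbol alone. All 10 were measured, each by 1 row, among 14506 genes named in this way and 29215 rows in all.

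An SLRP consists of a curved core of leucine-rich repeats that lies against collagen fibrils and sets their width and spacing, and most members carry glycosaminoglycan chains or tyrosine sulfate. The core also holds growth factors of the transforming growth factor beta family in the matrix. In bone, biglycan and decorin are abundant in the unmineralised matrix laid down by osteoblasts, osteomodulin is largely a bone protein, and mice without biglycan have been described with low bone mass.

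The cells were taken from the long bones of 2 to 5 day old Sprague Dawley rats, which carried no stated genetic change, and they were left to adhere in plates with the coating. Osteopontin (OPN) from bovine milk, a phosphorylated bone protein bound by integrins, gave 3 arrays (replicates 2, 3 and 4), and prothrombin (PT) from mouse, the precursor of thrombin, gave 3 arrays (replicates 1, 2 and 4). Both groups are therefore mixed populations selected by adhesion, not sorted cells, and the coatings differ in source species as well as in protein. The platform was the Affymetrix Rat Gene 1.0 ST array, and each value is a PLIER signal, a linear brightness summarised over the probes of a row.

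Array medians lay between 207.8 and 231.4 units, and correlations across rows of log2 signals were at least 0.988 within a coating and at most 0.979 between coatings. Separate animals or cultures are not named in the labels, so that the p-values describe the spread between these arrays, which may be technical, and with so few arrays the precision is limited. No call of signal above background was used. On the PT arrays 6 or 7 of the 10 genes lay below the lower quartile of all rows (122.8 to 140.0 units over the 6 arrays), and background of unknown size in such dim signals pulls a difference toward 0. Differences are OPN minus PT in log2(signal + 16), which also understates the change of dim rows, and the ratio of mean signals is given beside them.

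The comparison of OPN-adherent with PT-adherent cells asks which SLRP genes distinguish the populations held by the coatings. The family divided into 3 tiers. Lum, Bgn and Dcn were about 10-fold brighter on OPN, Ogn and Omd about 2-fold, and the other 5 genes did not pass the test. In limma's test over all rows, with an adjusted p below 0.05 as the threshold, 5 of the 10 genes rose, 0 fell and 5 were not called, while 5.05% of all rows were called higher, 0.77% lower and 5.82% in either direction. At an unadjusted p below 0.05 there were 6 genes (17.7% of all rows), the additional gene being Chad in the downward direction. A rise of at least 1 on the log2 scale was called for 4 of the 10, against 0.986% of all rows. The smallest of these was Ogn (1.03). It fell below 1 with equal array medians (0.968), quantile normalisation (0.969), a pseudocount of 64 (0.828) and without PT replicate 2 (0.982). The median difference was 0.48 over the 10 genes and 0.03 over all rows. In bulk RNA, fewer cells of a type and less RNA per cell cannot be told apart.

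**Figure D1:**
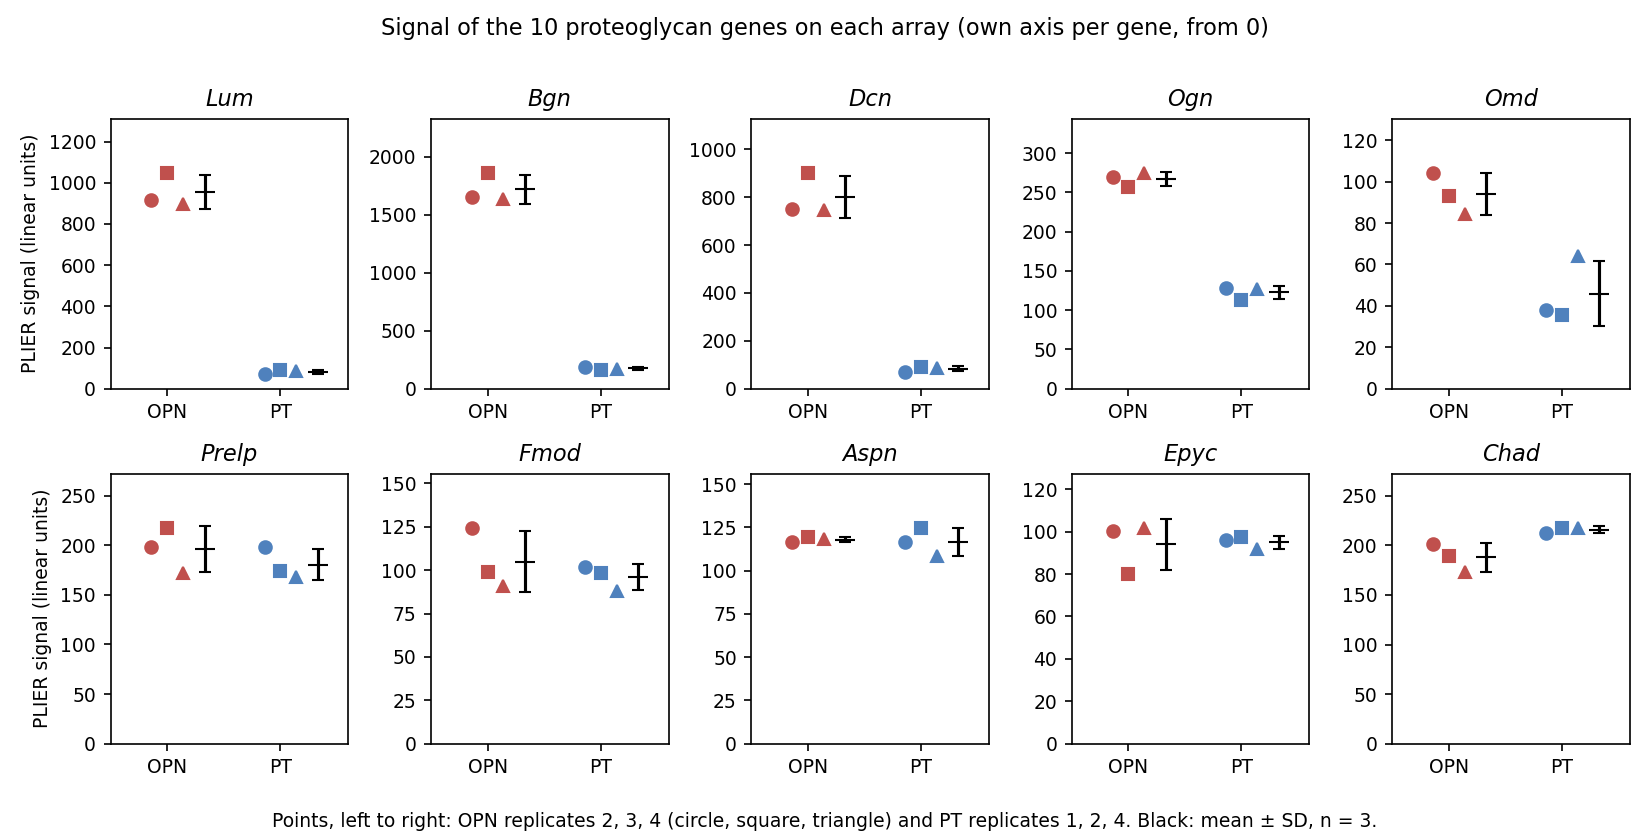
PLIER signal in linear units (y axis, from 0, own scale per gene) of the 10 genes on the 3 OPN arrays (red, left) and the 3 PT arrays (blue, right), with the mean ± SD in black. Lum, Bgn, Dcn, Ogn and Omd are separated between coatings, Prelp, Fmod, Aspn and Epyc overlap, and Chad is lower on every OPN array.

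Class I contains biglycan, decorin and asporin, which are close in sequence. Bgn, whose protein carries chondroitin or dermatan sulfate chains and binds collagen and growth factors, had 1653, 1862 and 1639 units on OPN arrays 2, 3 and 4, against 190, 162 and 174 units on PT arrays 1, 2 and 4. Every OPN array was far above every PT array, and OPN replicate 3 was the highest. The means were 1718 ± 125 units on OPN against 175 ± 13.7 units on PT (± SD, n = 3 each), a ratio of 9.79. The difference was 3.18 (SE 0.08, adjusted p = 2.29e-07 in limma), which ranked 16 among the 1475 rows called higher.

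Dcn, the gene of decorin, the archetypal collagen-binding SLRP and an antagonist of growth factor signalling, had 750, 902 and 748 units on OPN arrays 2, 3 and 4. On PT arrays 1, 2 and 4 it had 71.8, 91.2 and 87.0 units. The order of the OPN arrays was that of Bgn, with replicate 3 on top, while the PT arrays followed another order, Dcn being lowest and Bgn highest on PT replicate 1. The ratio of mean signals was 9.60 and the difference 3.04 (SE 0.11, adjusted p = 9.02e-07 in limma).

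Aspn, whose protein binds collagen and carries a run of aspartic acid residues in place of glycosaminoglycan chains, gave 116, 119 and 118 units on OPN and 117, 125 and 109 units on PT. The coatings overlapped, and the OPN values lay inside the range of the PT values. The difference of 0.02 had a 95% interval of -0.15 to 0.18 (adjusted p = 0.950 in limma), and its sign turned with either scaling of the arrays (-0.046 with equal medians, -0.031 with quantile normalisation) and without PT replicate 4 (-0.029). Within class I, Bgn and Dcn thus rose and Aspn was not called.

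Class II contains lumican, fibromodulin, PRELP and osteomodulin. Lum, a keratan sulfate proteoglycan that regulates the assembly of collagen fibrils, had 918, 1049 and 898 units on OPN and 71.3, 88.8 and 85.0 units on PT. Its arrays took the same order as those of Dcn in both groups. With means of 955 ± 81.8 units on OPN against 81.7 ± 9.23 units on PT (± SD, n = 3 each), the ratio was 11.7. The order of Lum and Bgn depended on the setting, since with a pseudocount of 64 the log2 difference was 2.81 for Lum and 2.89 for Bgn. The difference of 3.31 (SE 0.10, adjusted p = 3.24e-07 in limma) ranked 13 among the rows called higher.

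Omd encodes osteomodulin, also called osteoadherin, a keratan sulfate proteoglycan of mineralised matrix that binds mineral and cell-surface integrins. It was dim, at 104, 93.1 and 84.2 units on OPN and 38.1, 35.7 and 63.9 units on PT. The arrays did not overlap, but PT replicate 4 stood well above the other PT arrays and gave Omd the widest relative spread of the family, 34.1% of the PT mean. The ratio of mean signals was 2.04 and the difference 0.85 (SE 0.16, adjusted p = 0.0155 in limma). This call was lost without PT replicate 1 (adjusted p = 0.0580), PT replicate 2 (adjusted p = 0.0507), OPN replicate 2 (adjusted p = 0.0615) or OPN replicate 3 (adjusted p = 0.0623), whereas without PT replicate 4 the difference was 1.05 (adjusted p = 0.00117).

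Fmod, the gene of fibromodulin, a collagen-binding protein prominent in tendon and cartilage, had 124, 98.7 and 91.1 units on OPN and 102, 98.6 and 87.8 units on PT. Prelp, whose protein links collagen to heparan sulfate chains of basement membranes, had 198, 218 and 172 units on OPN and 198, 174 and 168 units on PT. In both genes the coatings overlapped. The 95% intervals of the differences were -0.15 to 0.35 for Fmod and -0.12 to 0.34 for Prelp, so that a rise of the size seen in Ogn lies outside them on this scale. Without OPN replicate 2 the difference of Fmod, 0.10 over all arrays, became -0.013.

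Class III is represented by osteoglycin and epiphycan. Ogn, also known as mimecan and first isolated from bone, had 270, 257 and 275 units on OPN and 128, 113 and 127 units on PT. The arrays of each coating lay close together, with an SD of 3.41% of the mean on OPN and 6.66% on PT, and they did not overlap. OPN replicate 3 was the lowest OPN array here, whereas it was the highest for Lum, Bgn and Dcn. The ratio of mean signals was 2.18 and the difference 1.03 (SE 0.07, adjusted p = 6.03e-05 in limma).

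Epyc, a proteoglycan gene of growth plate cartilage, had 100, 80.0 and 102 units on OPN and 96.2, 97.4 and 91.6 units on PT, with overlapping arrays. Its difference was -0.02 with a 95% interval of -0.23 to 0.19 (adjusted p = 0.950 in limma), and it became 0.076 without OPN replicate 3. Chad, the only member of class IV here, encodes chondroadherin, a cartilage protein bound by integrins. It had 202, 189 and 173 units on OPN and 212, 218 and 218 units on PT. All OPN arrays were below all PT arrays, but the difference of -0.19 (SE 0.07) did not pass (unadjusted p = 0.0354, adjusted p = 0.235 in limma). Arrays of the coatings failed to overlap in 6 of the 10 genes and in 23.7% of all rows, with 5 genes (16.3% of rows) higher on OPN and Chad (7.4% of rows) lower. The adjusted p of Chad was 0.0772 with equal array medians and 0.0591 with quantile normalisation, and over its alternatives it ranged from 0.0591 to 0.566.

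**Figure D2:**
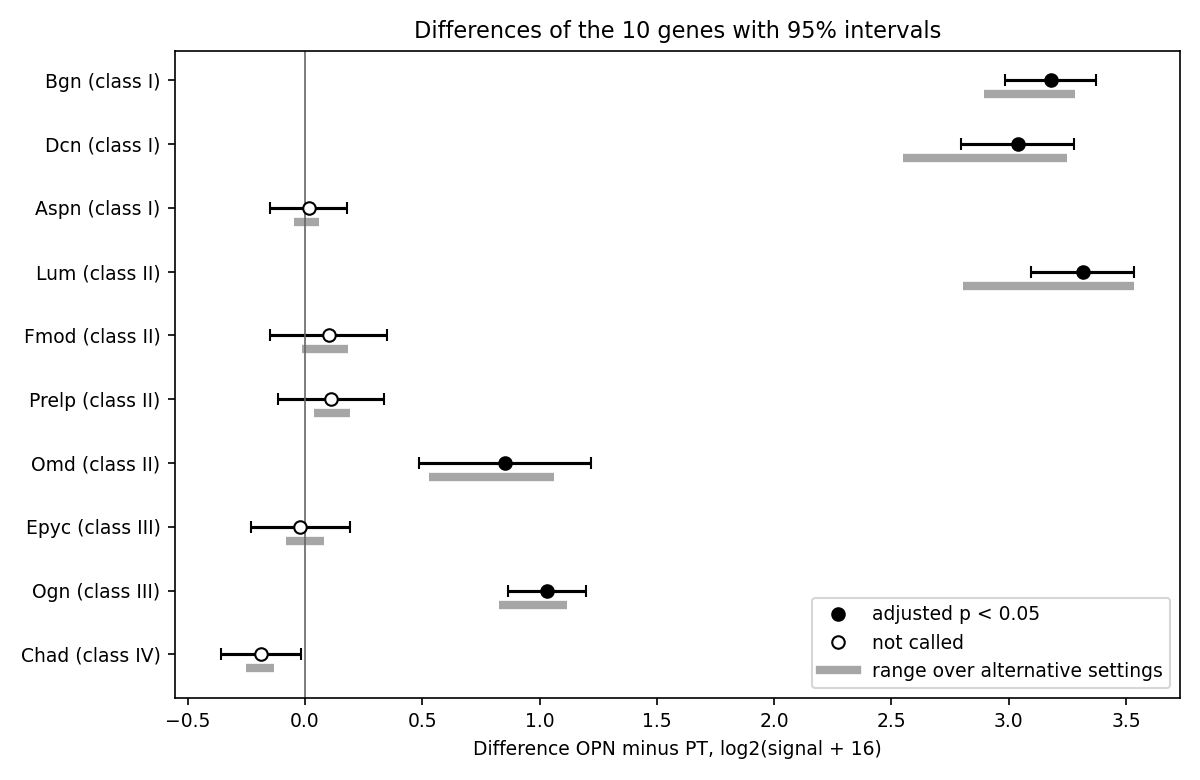
Difference OPN minus PT in log2(signal + 16) (x axis) of the 10 genes, ordered by class, with 95% intervals from limma. Filled points passed an adjusted p of 0.05, and the grey bars span the values under the alternative settings. Lum (3.31), Bgn (3.18) and Dcn (3.04) lie apart from Ogn (1.03) and Omd (0.85), and the other 5 lie between -0.19 and 0.11.

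Most SLRP genes stand in tandem on the chromosome, so the differences were read in gene order. In the GRCr8 gene table, Dcn, Lum, Kera and Epyc lie in this order on chromosome 7, Ogn, Omd, Aspn and Ecm2 on chromosome 17, and Optc, Prelp and Fmod on chromosome 13. The stretch on chromosome 17 also holds the start of Rpl6-ps6. Kera encodes the corneal SLRP keratocan, Optc the eye protein opticin, and Ecm2 was not analysed here. On chromosome 7 Dcn (3.04) and Lum (3.31) rose while their neighbours Kera (0.07) and Epyc (-0.02) were not called. On chromosome 17 Ogn (1.03) and Omd (0.85) rose and Aspn (0.02) was not called. On chromosome 13 none of Optc (0.04), Prelp (0.11) and Fmod (0.10) was called, at adjusted p of 0.882, 0.660 and 0.723 in limma, and without OPN replicate 2, with equal medians and with quantile normalisation Optc had -0.011, -0.030 and -0.040.

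Unequal change was tested within arrays, as the log2 signal of 1 gene minus that of another. Of 15 pairs compared, 9 did not overlap between the coatings, and each of these had p = 0.1 in an exact two-sided permutation test and adjusted p = 0.167. That p is the smallest that 3 against 3 arrays allow, so no pair could pass. Apart from Lum minus Dcn, each non-overlapping pair set a called gene against an uncalled one and so largely repeats the single-gene results. The share of non-overlapping pairs among other genes was not computed. Lum minus Epyc differed by 3.33 between coatings, at 3.14 ± 0.28 on OPN against -0.19 ± 0.15 on PT (± SD, n = 3 each). Ogn minus Aspn differed by 1.02, at 1.08 ± 0.06 on OPN against 0.06 ± 0.17 on PT (± SD, n = 3 each).

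The neighbours that rose together could still be compared with each other. Lum minus Dcn averaged 0.25 ± 0.04 on OPN against -0.02 ± 0.01 on PT (± SD, n = 3 each), without overlap and 0.28 apart. Both genes were below the lower quartile on the PT arrays, so the PT ratio may hold background. For Ogn minus Omd (a difference of 0.18) and Bgn minus Dcn (0.14) the coatings overlapped, with exact permutation p = 0.5 and p = 0.4. Prelp minus Fmod differed by 0.01, also with overlap.

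**Figure D3:**
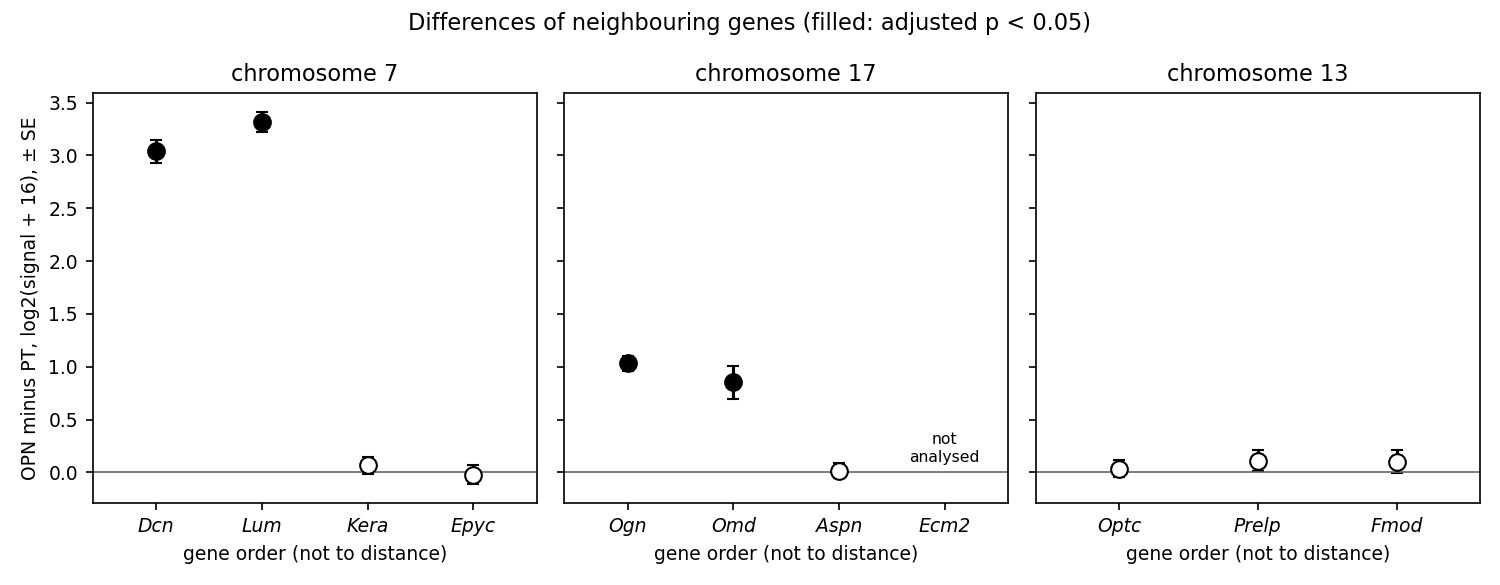
Difference OPN minus PT in log2(signal + 16) (y axis, ± SE from limma) of SLRP genes in their order on 3 rat chromosomes (x axis, not to distance). Filled points passed an adjusted p of 0.05. Dcn and Lum stand above 3 beside Kera and Epyc near 0, Ogn and Omd near 1 beside Aspn near 0, and all 3 genes on chromosome 13 lie near 0.

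Because neighbours with unlike responses bring the start of each gene into view, the promoter sequences of 3 genes that rose (Lum, Ogn, Omd) and of the uncalled neighbours Epyc and Aspn are shown. Each runs from 250 bases before to 50 bases after the start in RefSeq's annotation of GRCr8, and 7 of the 10 genes had an entry, with Bgn, Dcn and Prelp not among them. The positions are Lum chr7:34245456-34245755 (plus strand), Epyc chr7:34323082-34323381 (plus strand), Ogn chr17:15258946-15259245 (minus strand), Omd chr17:15274821-15275120 (minus strand) and Aspn chr17:15310420-15310719 (minus strand). Capitals mark matches, on either strand, to TATAAA (the letters of the TATA box), TGTGGT (the core bound by RUNX factors, which include the osteoblast regulator Runx2) or TGANTCA (the site of AP-1 factors). Such a match is of letters alone, whatever its distance from the start, and use of the site was not tested.
Lum: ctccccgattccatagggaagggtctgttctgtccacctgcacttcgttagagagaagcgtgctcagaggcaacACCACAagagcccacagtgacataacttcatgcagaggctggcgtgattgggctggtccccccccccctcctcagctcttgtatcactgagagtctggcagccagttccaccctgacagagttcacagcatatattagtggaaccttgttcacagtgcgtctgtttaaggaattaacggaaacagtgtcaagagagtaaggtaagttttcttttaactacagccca
Ogn: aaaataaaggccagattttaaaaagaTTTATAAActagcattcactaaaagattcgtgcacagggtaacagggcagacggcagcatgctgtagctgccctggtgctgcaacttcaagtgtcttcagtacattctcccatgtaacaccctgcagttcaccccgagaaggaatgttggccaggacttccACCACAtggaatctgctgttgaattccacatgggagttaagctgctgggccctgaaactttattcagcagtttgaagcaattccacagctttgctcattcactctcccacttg
Omd: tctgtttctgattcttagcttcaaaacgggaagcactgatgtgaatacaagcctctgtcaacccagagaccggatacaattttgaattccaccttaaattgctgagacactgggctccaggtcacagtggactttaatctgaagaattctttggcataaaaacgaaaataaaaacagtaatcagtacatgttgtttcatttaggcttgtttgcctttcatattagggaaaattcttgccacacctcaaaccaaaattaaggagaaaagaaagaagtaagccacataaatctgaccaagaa
Epyc: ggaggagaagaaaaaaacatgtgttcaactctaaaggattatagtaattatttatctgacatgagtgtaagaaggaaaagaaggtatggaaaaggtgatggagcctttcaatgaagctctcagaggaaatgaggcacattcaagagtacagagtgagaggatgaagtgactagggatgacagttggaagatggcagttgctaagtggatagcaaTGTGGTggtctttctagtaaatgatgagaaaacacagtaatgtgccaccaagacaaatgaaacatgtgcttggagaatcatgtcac
Aspn: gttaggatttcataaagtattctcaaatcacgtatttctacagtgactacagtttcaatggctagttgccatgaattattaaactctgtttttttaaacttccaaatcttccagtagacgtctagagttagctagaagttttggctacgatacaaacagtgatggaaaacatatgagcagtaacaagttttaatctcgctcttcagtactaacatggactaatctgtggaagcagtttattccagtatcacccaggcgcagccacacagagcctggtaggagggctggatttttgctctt

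The letters TGTGGT occurred on the opposite strand 176 bases before the start in Lum and 63 bases before it in Ogn, where the match overlaps an E-box (CANNTG). They also occurred on the same strand 36 bases before the start of Epyc, which was not called, and had no match in Omd or Aspn. Of 33469 promoters of the same length, 17.3% held this motif. TATAAA matched Ogn in an overlapping pair of matches on opposite strands, 224 and 222 bases before the start, and was found in 14.2% of all promoters. TGANTCA, present in 7.33% of all promoters, matched none of the 5 sequences. The E-box, searched by the letters CANNTG and not marked in capitals, had 1 match in Lum, 4 in Ogn, 0 in Omd, 5 in Epyc and 1 in Aspn, and 72.1% of all promoters held it. None of the 4 patterns searched was found in all of Lum, Ogn and Omd.

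Genes that work with the SLRPs were followed through lists of other matrix genes, of which limma called 0 lower, and 0 at an unadjusted p below 0.05, among the lists of collagens, propeptide processing, proteases and sulfate chain synthesis. Collagen chains, the main ligands of the cores, rose in 9 of 11 measured, with a median of 1.95. Among them, Col11a1 (3.29) and Col5a2 (3.07), chains of the minor fibrillar collagens that start fibrils, Col12a1 (2.59), a fibril-associated collagen, and Col1a2 (2.47), a chain of the main bone collagen, had the smallest p. Col11a1 and Col5a2 moved by amounts within the range of Lum, Bgn and Dcn (3.04 to 3.31).

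Genes for the trimming of SLRP and collagen propeptides rose in 4 of 6 measured, with a median of 0.43. Bmp1, the proteinase that removes the propeptide of biglycan and osteoglycin, differed by 2.13 (SE 0.09), and Pcolce, which enhances its action on procollagen, by 3.03 (SE 0.12). The proprotein convertase genes Pcsk5 (0.46) and Pcsk6 (0.41) rose by less, and the call of Pcsk6 was lost without OPN replicate 3 (adjusted p = 0.0518) while that of Pcsk5 was kept only without OPN replicate 4 when an array was left out. Proteases able to cleave SLRPs rose in 9 of 13 measured, with a median of 1.47. Ctsk (4.35) and Mmp9 (2.90), proteases of osteoclasts, stood beside the collagenase Mmp13 (3.81) and Adamts1 (2.62), a proteoglycan-cleaving protease.

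The enzymes that build the sugar chains had lower medians. For chondroitin and dermatan sulfate, the chains of biglycan and decorin, 6 of 22 measured genes rose, with a median of 0.19. Chsy1, which polymerises chondroitin, differed by 0.86 (SE 0.07), the sulfotransferases Chst11 and Chst15 by 0.62 and 0.56, and Papss2, which makes the sulfate donor, by 0.60. For keratan sulfate, the chain of lumican, fibromodulin and osteomodulin, 2 of 8 measured genes rose, with a median of 0.03. They were Fut8 (0.45), a fucosyltransferase of N-linked sugars, and St3gal3 (0.31), a sialyltransferase, neither of which is a polymerising or sulfating enzyme. Without OPN replicate 2 or OPN replicate 3 the keratan list had 0 calls, and with equal array medians it had 1, St3gal3 being lost (adjusted p = 0.0916).

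Of 25 growth factors and receptors that SLRPs bind or act through, 9 rose and 2 fell, with a median of 0.12. Ddr2, a receptor kinase for fibrillar collagen, differed by 1.99, the receptor gene Kdr by 1.15, the integrin gene Itgb1 by 0.72, and Ccn4, a matricellular protein gene, by 0.52. The genes that fell were Tlr4 (-0.38) and Cd14 (-0.35), which belong to the innate receptor complex through which soluble biglycan acts on macrophages. Tlr4 remained called only without OPN replicate 3 and Cd14 only without PT replicate 1 when an array was left out, with adjusted p up to 0.143 and 0.189, and neither was called with a pseudocount of 1. Of 5 other measured SLRP relatives limma called 0, and 1 had an unadjusted p below 0.05 (17.7% of all rows). That 1 was Tsku, a secreted inhibitor of growth factor signalling, at 366, 414 and 338 units on OPN and 301, 282 and 278 units on PT, without overlap (0.35, adjusted p = 0.0533). Tsku was called without OPN replicate 4 (adjusted p = 0.0453), with a pseudocount of 64 (0.0274), without the dimmest rows (0.0172) and with a trended robust prior (0.0103), and over all its alternatives the adjusted p reached 0.304.

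**Figure D4:**
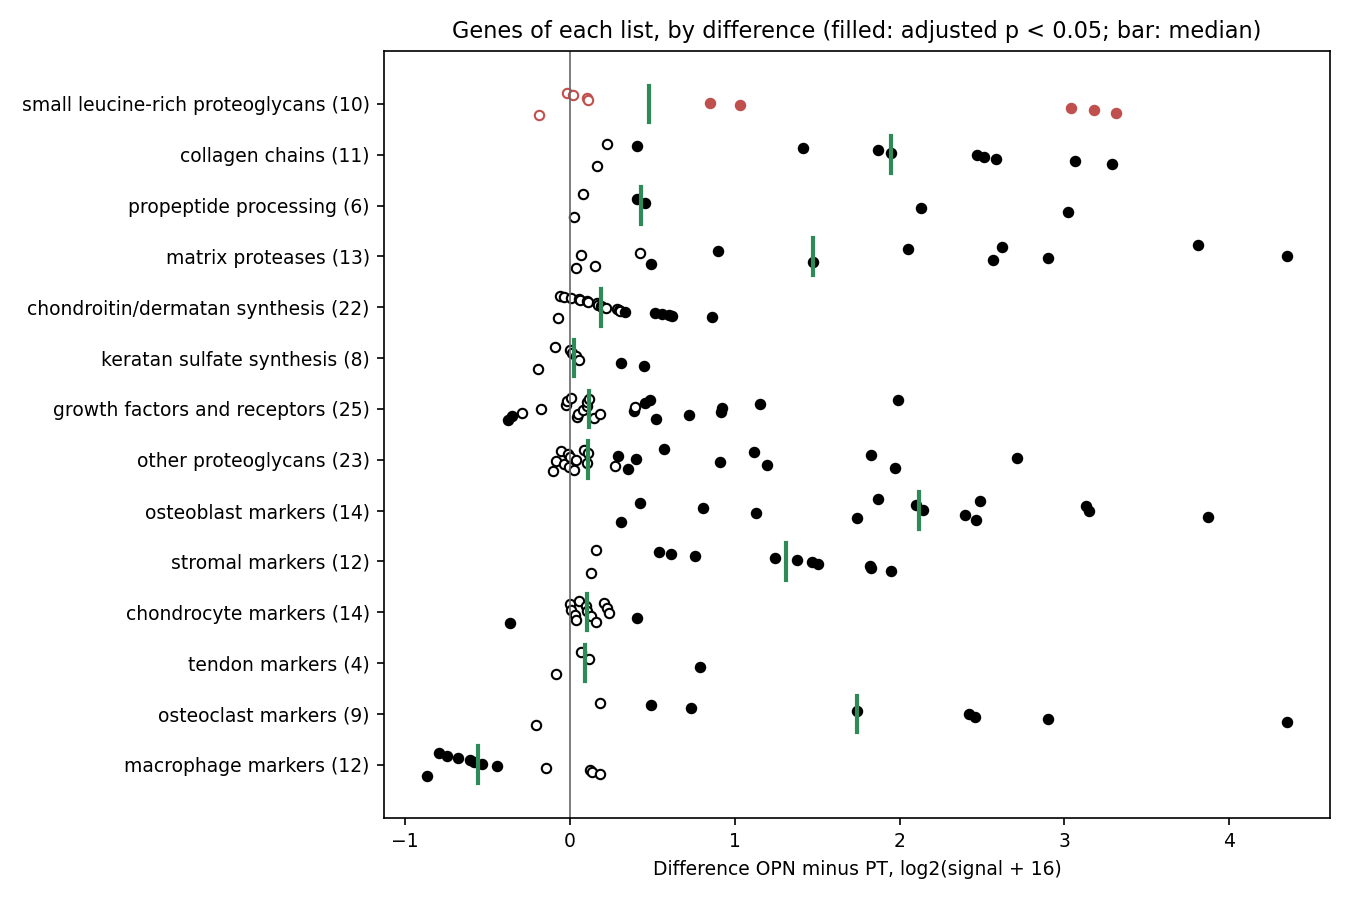
Difference OPN minus PT in log2(signal + 16) (x axis) of every measured gene in the lists shown (rows, number of genes in parentheses), with the 10 SLRP genes in red. The lists of other SLRP relatives and of endothelial, granulocyte and erythroid markers are not drawn. Filled points passed an adjusted p of 0.05 and green bars are medians. The osteoblast (2.12), collagen (1.95), osteoclast (1.74), protease (1.47) and stromal (1.31) medians lie to the right of that of the SLRP genes (0.48). The chondrocyte median (0.10) lies near 0.

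Markers of several cell types moved on the same arrays, and their part in the SLRP differences was not tested. Some markers, such as Col1a1, Col3a1, Ctsk and Mmp9, also stand in the lists above, so the counts are not independent. Osteoblast markers rose in 14 of 14 measured, led in significance by Sparc (3.13), Phex (3.15), Bglap (2.46) and Col1a1 (1.87), and their summed signal was 42295 to 47536 units on OPN and 8757 to 9365 units on PT. Stromal markers rose in 10 of 12, among them Cxcl12 (1.82) and Pdgfra (1.38), with summed signals of 5621 to 5919 units on OPN and 2223 to 2407 units on PT. Osteoclast markers rose in 7 of 9 (28744 to 32270 units on OPN and 11162 to 13392 on PT) and endothelial markers in 7 of 8 (2422 to 2573 units on OPN and 1457 to 1591 on PT), while macrophage markers fell in 8 of 12 (9593 to 10274 units on OPN and 13595 to 14175 on PT). The 4 macrophage markers not called were Cd68 (0.18), Vsig4 (0.14) and Csf1r (0.12), above 0, and Marco (-0.15), below it. Single bright genes weigh on the summed signals. Car2, which was not called, made up most of the osteoclast sum on PT (mean 7673 units on OPN and 8897 on PT). Col1a1 was the brightest osteoblast marker (20320 and 5553 units).

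Cartilage and tendon, where Epyc, Chad and Fmod are prominent, gave another picture. Of 14 chondrocyte markers 1 rose, Col2a1 (0.41), and 1 fell, Sox6 (-0.36), with summed signals of 4204 to 4416 units on OPN and 3970 to 4325 on PT, which overlap. At an unadjusted p below 0.05 in limma, 4 were higher and 1 lower (17.7% of all rows in either direction). Col2a1 no longer passed when OPN replicate 2 or 3, or PT replicate 2 or 4, was omitted (adjusted p of at most 0.0726), and Sox6 no longer passed when OPN replicate 2 was omitted (adjusted p = 0.0700). Of 4 tendon markers 1 rose, Egr1 (0.79), which is also an immediate early gene of many cells, and Scx (0.12), Kera (0.07) and Tnmd (-0.09) were not called. The summed tendon signal was 1650 to 1723 units on OPN and 1157 to 1177 on PT, a gap that lay mostly in Egr1 (mean 1142 units on OPN and 654 on PT). In granulocyte markers limma called 0 of 9, with 5 higher at an unadjusted p below 0.05 (17.7% of all rows in either direction). Without PT replicate 4 limma called 6. Summed granulocyte signals were 15346 to 17400 units on OPN and 10123 to 16818 on PT. In erythroid markers 2 of 6 fell (49373 to 53063 units on OPN and 53444 to 60402 on PT), and 0 did when any array but PT replicate 1 was left out. No marker in any of these lists was below 1 unit on any array. This does not show signal above background, of which no call was used.

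The genes most like each rising SLRP across the 6 arrays were found as those with the smallest Euclidean distance between log2 profiles centred per gene, among 14505 other genes. The arrays fall into the coatings, so that such a gene is mainly one with a difference of similar size. For Bgn they were Fkbp10 (distance 0.10), a collagen-folding enzyme gene, Cpe (0.11), a carboxypeptidase gene, and Phex (0.13), a peptidase gene of osteocytes. For Dcn they were Timp1 (0.21), Sparc (0.24) and Mmp9 (0.28), and for Lum they were Mme (0.28), Sparc (0.29) and Ppic (0.30). Ogn was closest to Tagln2 (0.11), Pdpn (0.12), the podoplanin gene, and Fat3 (0.12). Omd was closest to Plek (0.28), Ptgs2 (0.30) and Anxa1 (0.30). None of the nearest genes was itself an SLRP.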

How the data were processed

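Groups were taken from the sample titles. Per the submitters' processing notes, the deposited intensities were made with Affymetrix Expression Console and PLIER. Background correction, scaling between arrays and a genome build are not recorded there, with versions likewise not given in the sources used here. From the values, the scale is linear, and 1 intensity per row and array is given. Of 29215 rows, 15310 had 1 gene symbol, 323 several and 13582 none, and the last 2 kinds were not named. A gene with several rows would be represented by the brightest, which none of the 10 genes needed.

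Values entered as log2(intensity + 16). All rows, without a filter, entered a linear model in which the coating was the single term (limma 3.58.1, lmFit followed by eBayes, under R 4.3.3), and p-values were adjusted over all of them after Benjamini and Hochberg, with a threshold of 0.05. The code was tested on simulated data. Pairs of genes were compared by exact permutation tests in SciPy 1.17.1. The members and lists were chosen with earlier results of these data known. Named list genes are mostly from the 4 of smallest p and, where 5 or fewer were called in a direction, those. Not all such cell type markers are named, and Car2 and the uncalled macrophage markers were named outside this rule. Alternatives were pseudocounts of 1 and 64, 2 scalings, a filter on dim rows, a trended robust prior, the replicate number as a block and each array left out. Promoters and gene order came from RefSeq tables of GRCr8, where all 10 symbols matched. No column was left unassigned.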

Additional observations from a re-analysis of the deposited data

How the results depend on the processing

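The calls of Lum, Bgn, Dcn and Ogn held under all 13 alternative fits, with lowest values of 2.81, 2.89, 2.55 and 0.83 (the pseudocount of 64 in each case), and 4 or 5 of the SLRP genes were called higher and 0 lower in every fit. The filter on the dimmest 25% of rows removed Omd, Aspn, Fmod and Epyc from the test. Omd had 0.77 with the replicate number as a block (adjusted p = 0.148) and between 0.74 and 1.05 with an array left out. Replicate 1 occurs only on PT and replicate 3 only on OPN. With the block, the coating difference therefore rests on replicates 2 and 4 alone, and fewer calls come with less information. Values near 0 changed sign. With an array left out, Aspn ranged from -0.029 to 0.059, Fmod from -0.013 to 0.18, Epyc from -0.073 to 0.076, Optc from -0.011 to 0.11 and Tnmd from -0.19 to 0.068. Epyc and Tnmd were at 0.083 and 0.066 with the block, and Aspn was at -0.046 and -0.031 and Optc at -0.030 and -0.040 with equal medians and quantile normalisation. Over all rows, 1700 calls (1475 higher, 225 lower) became 1023 to 1486 (928 to 1357 higher, 95 to 181 lower) with an array left out, 666 (618 higher, 48 lower) with the block, and 289 at a log2 difference of at least 1. Rows called lower numbered 382 with a pseudocount of 64, 418 with the filter, 516 with the trended prior, 551 with equal medians and 745 with quantile normalisation, and the share of calls that were higher, 86.8%, was 68.4% and 64.6% with these scalings. Over the partner, enzyme, protease and proteoglycan lists, 49 genes higher became 31 with the block and 36 to 44 with an array left out, and 2 lower became 0 with the block or a pseudocount of 1 and 0 to 1 with an array left out. The causes were not tested. Replicate numbers 2 and 4 occur in both coatings, and deviations of same-numbered arrays from their group means correlated at -0.08 and 0.07 over rows. Differently numbered arrays gave -0.11 to 0.18. With so few arrays this cannot tell whether same-numbered arrays shared a preparation, which the labels do not state. Dimness limits what can be said of Aspn, Fmod and Epyc.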

Other observations

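Proteoglycans outside the SLRP family also differed between the coatings. Of 23 measured core protein genes of the matrix, cell surface and granules, 10 rose and limma called 0 lower, also 0 at an unadjusted p below 0.05, with a median difference of 0.11. Sdc2, a heparan sulfate proteoglycan gene of mesenchymal cell surfaces, had mean signals of 953 units on OPN and 132 units on PT (difference 2.71, SE 0.08, adjusted p = 4.33e-07 in limma). The glypican genes Gpc1 (1.82) and Gpc4 (1.20), whose proteins are tethered to the membrane by a lipid anchor, and Ptprz1 (1.98), which encodes a chondroitin sulfate receptor phosphatase, rose as well. With the replicate number as a block 6 of the 23 were called, and 7 or 8 with an array left out.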
